A study of Mus musculus with 12 samples.

Results

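The transcripts described are 35 interferon-stimulated genes in the jejunum of male mice, among 27565 genes tested on the array (15812 with a symbol and 11753 unnamed probes). They were chosen by symbol, with earlier results of these data known, and found through the RefSeq accession that the array gives for each probe. All 35 had a probe and all 35 passed the filter on dim probes, so none is missing from what follows. Oas3 was well above background on 11 of the 12 arrays, the exception being IAP-KO vehicle replicate 3, and the other members were well above background on all 12. The 4 groups of 3 mice, with 1 mouse per array, were IAP-KO mice given IIAEK, IAP-KO mice given vehicle, wild-type mice given IIAEK and wild-type mice given vehicle. IAP-KO mice carry Akp3-/-, a null genotype for intestinal alkaline phosphatase of the duodenal type. IIAEK is a pentapeptide, given by mouth each day for 14 days from 7 weeks of age, at a daily dose of 600 mg per kg body weight, and the vehicle was carboxymethylcellulose at 5 g/L. The jejunum was taken after 8 h of fasting, and whole-tissue total RNA labelled with Cy3 was hybridised to Agilent arrays.

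Interferons of types I and III are cytokines that cells can release on sensing foreign nucleic acid. Type I interferons signal through Ifnar1 and Ifnar2, type III interferons through Ifnlr1 and Il10rb, and both lead to a complex containing Stat2 and Irf9 that binds the interferon-stimulated response element in promoters. In the gut, epithelial cells respond mainly to type III interferon and the cells below them mainly to type I, and a low tonic level of these transcripts is known to be kept up by the intestinal microbiota. Intestinal alkaline phosphatase is known for removing phosphate from bacterial lipopolysaccharide.

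The promoters of 28 of the 35 genes were found in a RefSeq promoter table (build GRCm38.p6). The core of the response element, searched as GAAANNGAAA on both strands within the 250 bases before the start, where overlapping matches count separately, was present in 13 of the 28 genes (46.4%), against 3.46% of the 27025 genes in the table. The gamma-activated site, searched as TTCNNNGAA, which reads the same on both strands, was present in 4 of the 28 (14.3%), against 8.13% of all genes. A match is a description of the letters and not a shown binding site. The stretches printed here were not chosen to compare genes with and without the core. Ifi44 and Oasl2, without it, varied more between arrays than Oas1a and Oas1g, and Gbp2 and Stat2, with it, varied less. Below are the last 120 bases before the start for 4 members with the core that varied widely between arrays, then for Irf9, the member that varied least, with the core in capitals.
Isg15: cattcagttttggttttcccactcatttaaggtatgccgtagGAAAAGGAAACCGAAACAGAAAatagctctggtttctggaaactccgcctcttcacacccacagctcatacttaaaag
Ifit1: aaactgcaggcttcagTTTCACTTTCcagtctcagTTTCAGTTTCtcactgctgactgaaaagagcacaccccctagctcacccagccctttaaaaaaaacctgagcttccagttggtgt
Oas1a: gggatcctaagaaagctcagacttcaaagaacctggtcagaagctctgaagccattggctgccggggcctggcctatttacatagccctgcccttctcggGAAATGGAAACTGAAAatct
Oas1g: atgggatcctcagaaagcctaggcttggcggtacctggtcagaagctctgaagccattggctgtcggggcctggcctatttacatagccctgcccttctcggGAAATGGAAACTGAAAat
Irf9: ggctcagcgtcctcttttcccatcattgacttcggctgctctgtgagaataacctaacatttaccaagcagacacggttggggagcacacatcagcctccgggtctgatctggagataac
These stretches lie at chr4:156200819-156200938 (minus strand) for Isg15, chr19:34640769-34640888 (plus) for Ifit1, chr5:120907526-120907645 (minus) for Oas1a, chr5:120887614-120887733 (minus) for Oas1g and chr14:55603865-55603984 (plus) for Irf9, which has a second start in the table. Isg15 shows 3 overlapping cores in 1 run, Ifit1 shows 2 separate cores read on the opposite strand, and the Oas1 pair carries the same overlapping pair of cores close to the start. The 250 bases before the start of Oas1a and Oas1g were 82.8% identical. Neither start of Irf9 has the core within its window. The transcripts of Oas1a and Oas1g are close copies as well, and whether their probes tell them apart was not tested.

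Levels below are log2 processed signal minus that of the 75th percentile on the same array, so a level of 0 is that percentile and a difference of 1 is a doubling. That percentile lay between 410.5 and 578 signal units, and the share of spots above background by the scanner's criterion was 59.99% to 67.1%. Across genes, which are not independent replicates, pairs within a group had r of 0.978 to 0.992 and pairs from 2 groups 0.965 to 0.994. As a check of the labels, the brightest Akp3 probe was well above background on 0 of 6 IAP-KO arrays and on 5 of 6 wild-type arrays. Its level was -6.83 to -5.48 on the IAP-KO arrays and -3.95 to -1.11 on those 5 wild-type arrays. The array labelled wild-type vehicle replicate 3 was at -5.94, within the IAP-KO span, so Akp3 does not bear out the label of that array. A second, dimmer Akp3 probe was not well above background on it either, but was so only on wild-type IIAEK replicate 2 and replicate 3. The array was kept under its label. For the comparisons that include it, the median over the 35 genes is also given without it, and no member passed then. Values of single genes, counts above or below 0 and results within slide 2 are not given without it. The arrays lay on 2 slides, which were also 2 scans. Slide 1 held replicates 1 and 2 of both IAP-KO groups and replicate 1 of both wild-type groups, and slide 2 held the rest, so the IAP-KO arrays on slide 2 were replicate 3 of each treatment.

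The lowest level of every one of the 35 genes was on IAP-KO IIAEK replicate 3 or IAP-KO vehicle replicate 3. As the members were chosen with earlier results of these data known, the counts that follow are a description. The first was lowest for 10 genes and the second for 25, whereas over all genes with a value on 12 arrays they were lowest for 11.8% and 14.5%, 26.3% together. For 26 of the 35 these were the 2 lowest arrays, against 5.35% of all genes. No other array was lowest for any of the 35. The highest level was on wild-type IIAEK replicate 2 for 12 genes and on wild-type IIAEK replicate 3 for 9, and the other 14 were highest on arrays of the other 3 groups.

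**Figure D1:**
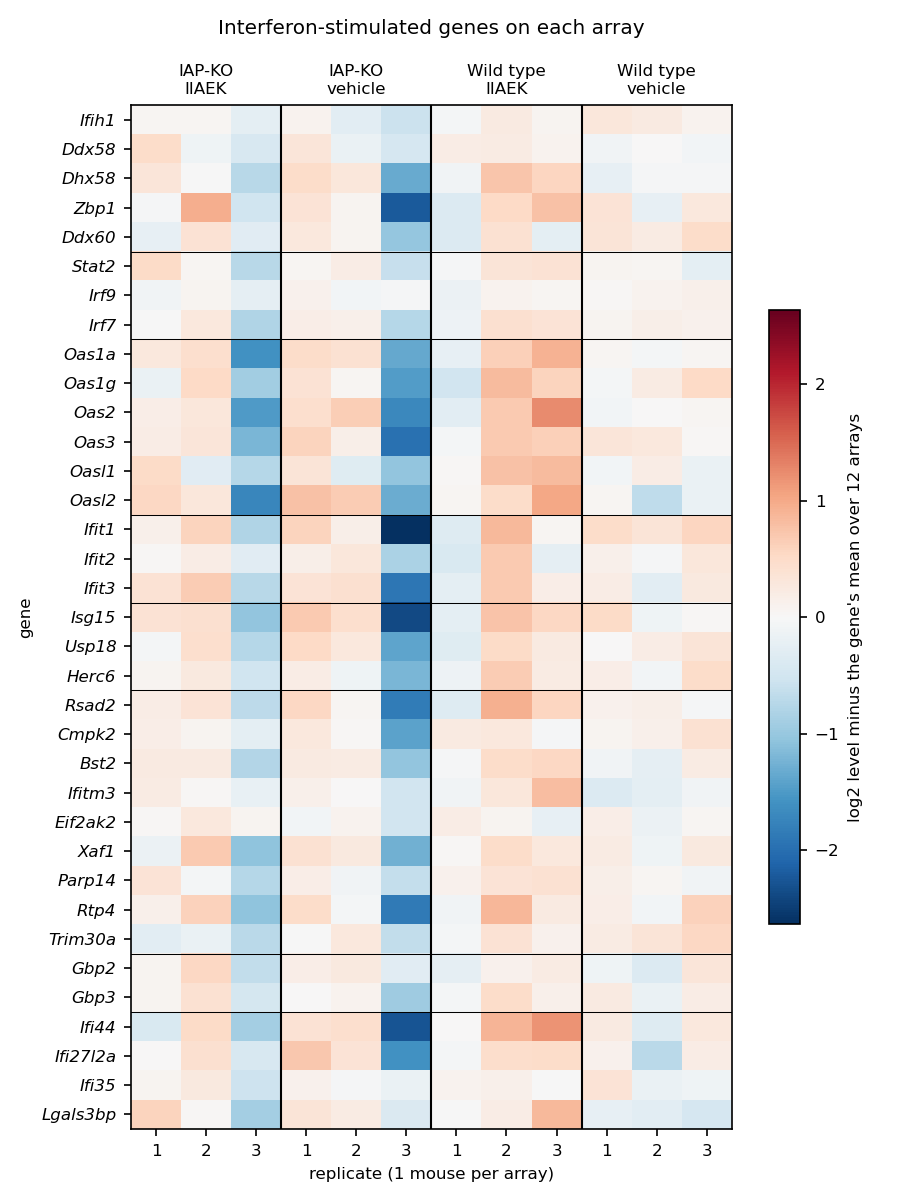
Level of each of the 35 genes (rows, ordered by role) on each of the 12 arrays (columns), as the log2 difference from the gene's mean over the 12 arrays; blue is lower and red is higher. Replicate 3 of both IAP-KO groups is blue in nearly every row, and Irf9 is close to white throughout.

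The mean deviation of the 35 genes from their own averages gives a level per array. It was 0.14, 0.29 and -0.72 in IAP-KO mice on IIAEK and 0.32, 0.16 and -1.19 in IAP-KO mice on vehicle. In wild-type mice it was -0.11, 0.51 and 0.40 on IIAEK and 0.11, -0.048 and 0.15 on vehicle. The other 2 mice of each IAP-KO group thus lay within the span of the wild-type mice, and 1 mouse in each IAP-KO group lay well below all others. The group means were -0.10 ± 0.54 in IAP-KO mice on IIAEK, -0.24 ± 0.83 in IAP-KO mice on vehicle, 0.26 ± 0.33 in wild-type mice on IIAEK and 0.071 ± 0.11 in wild-type mice on vehicle (SD, n = 3 each). The 4 wild-type arrays on the same slide as the 2 low arrays lay at 0.51, 0.40, -0.048 and 0.15. In whole tissue, fewer cells of a type and less RNA per cell cannot be told apart, and this holds for every level given here.

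**Figure D2:**
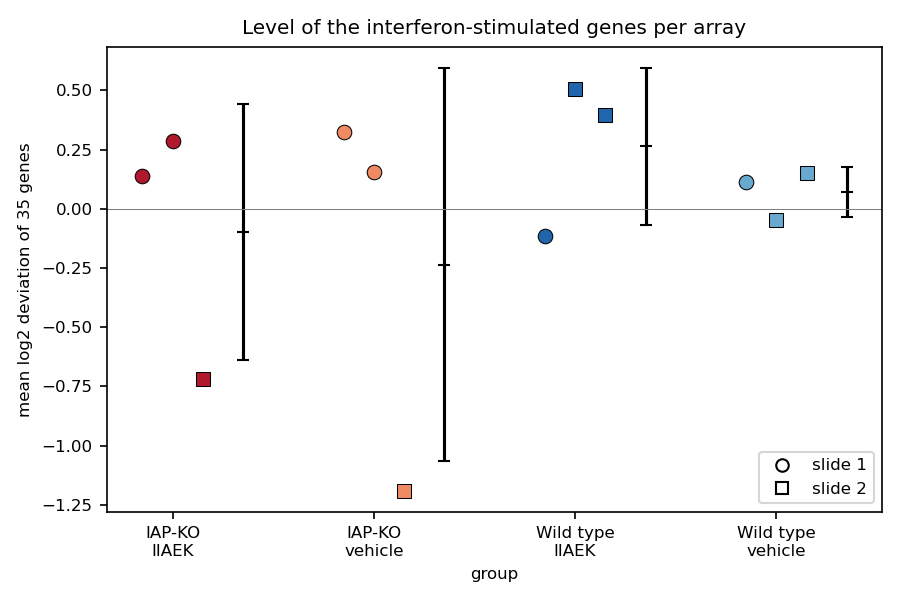
Mean log2 deviation of the 35 genes on each array (points), by group, with circles for slide 1 and squares for slide 2; the bar beside each group is its mean ± SD over 3 arrays. Both low points, -0.72 and -1.19, are IAP-KO squares.

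The span between the highest and the lowest array had a median of 1.88 log2 units over the 35 genes, against 0.90 over all genes tested. It ran from 0.36 for Irf9 to 3.49 for Ifit1, which is 1.28-fold and 11.2-fold. Without the 2 low arrays the median span was 0.90 for the 35 genes and 0.77 for all genes. Among the 28 members with a promoter in the table, the median span was 2.31 in the 13 with the core and 1.52 in the 15 without it. Ifi44 spanned 3.48 log2 units with no core in its window, so a wide span was not limited to genes with a match. Of 15 further probes for 13 of the members, 10 were well above background on all 12 arrays, and 8 of these 10 were also lowest on 1 of the same 2 arrays.

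Among the nucleic acid sensors, Ifih1, which encodes MDA5, a sensor of long double-stranded RNA, had levels of 2.20, 2.21 and 1.89 in IAP-KO mice on IIAEK, 2.24, 1.86 and 1.58 in IAP-KO mice on vehicle, 2.09, 2.39 and 2.22 in wild-type mice on IIAEK, and 2.44, 2.39 and 2.24 in wild-type mice on vehicle. Its lowest array was IAP-KO vehicle replicate 3, and IAP-KO vehicle replicate 2 was next, beside IAP-KO IIAEK replicate 3. Zbp1, a sensor of nucleic acid in the Z form that can trigger cell death, had levels of 1.29, 2.27 and 0.79 in IAP-KO mice on IIAEK, 1.67, 1.39 and -0.91 in IAP-KO mice on vehicle, 0.95, 1.84 and 2.09 in wild-type mice on IIAEK, and 1.68, 1.10 and 1.59 in wild-type mice on vehicle. Only IAP-KO vehicle replicate 3 lay below 0, and the IAP-KO IIAEK mice held both the highest and the second lowest Zbp1 level. Ddx60, a helicase linked to RNA sensing, had levels of 0.71, 1.30 and 0.62 in IAP-KO mice on IIAEK, 1.20, 0.98 and -0.095 in IAP-KO mice on vehicle, 0.55, 1.31 and 0.66 in wild-type mice on IIAEK, and 1.25, 1.13 and 1.40 in wild-type mice on vehicle. Here IAP-KO vehicle replicate 3 stood alone, and IAP-KO IIAEK replicate 3 lay beside 2 wild-type IIAEK mice. Ddx58, which encodes the RNA sensor RIG-I, averaged 2.73 ± 0.47 in IAP-KO mice on IIAEK, 2.66 ± 0.39 in IAP-KO mice on vehicle, 2.93 ± 0.062 in wild-type mice on IIAEK and 2.70 ± 0.058 in wild-type mice on vehicle. Dhx58, which encodes LGP2, a regulator of these sensors, averaged -0.67 ± 0.54 in IAP-KO mice on IIAEK, -0.72 ± 1.0 in IAP-KO mice on vehicle, -0.13 ± 0.44 in wild-type mice on IIAEK and -0.63 ± 0.11 in wild-type mice on vehicle (SD, n = 3 each, as for the averages that follow). The groups overlapped for both genes in every comparison of genotypes.

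The transcription factors differed in how far they moved. Irf7, which amplifies interferon production, had levels of 5.29, 5.57 and 4.51 in IAP-KO mice on IIAEK, 5.47, 5.44 and 4.54 in IAP-KO mice on vehicle, 5.16, 5.72 and 5.66 in wild-type mice on IIAEK, and 5.38, 5.44 and 5.40 in wild-type mice on vehicle. Replicate 3 of both IAP-KO groups lay apart from the other 10 arrays, which were all above 5. Stat2 and Irf9 are partners in the complex that binds the response element. Stat2 averaged 2.04 ± 0.62 in IAP-KO mice on IIAEK, 1.97 ± 0.43 in IAP-KO mice on vehicle, 2.32 ± 0.23 in wild-type mice on IIAEK and 2.05 ± 0.19 in wild-type mice on vehicle, and its lowest arrays were the same 2. Irf9 averaged 2.61 ± 0.15 in IAP-KO mice on IIAEK, 2.70 ± 0.093 in IAP-KO mice on vehicle, 2.69 ± 0.12 in wild-type mice on IIAEK and 2.78 ± 0.050 in wild-type mice on vehicle, and it varied least of all 35 genes. A second Irf7 probe was lowest on IAP-KO vehicle replicate 3, whereas the probe used was lowest on IAP-KO IIAEK replicate 3. A second Irf9 probe was lowest on IAP-KO IIAEK replicate 1 (1.08), with IAP-KO IIAEK replicate 3 next (1.13).

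The OAS family makes oligoadenylates that switch on RNase L, which degrades RNA. Oas1a had levels of 4.48, 4.65 and 2.61 in IAP-KO mice on IIAEK, 4.69, 4.61 and 2.85 in IAP-KO mice on vehicle, 3.98, 4.83 and 5.12 in wild-type mice on IIAEK, and 4.27, 4.15 and 4.25 in wild-type mice on vehicle. The 2 low IAP-KO arrays were below 3 and all other arrays were between 3.98 and 5.12. Oasl1, a member without enzyme activity that in mice is known to hold back translation of Irf7, had levels of 4.45, 3.64 and 3.19 in IAP-KO mice on IIAEK, 4.28, 3.63 and 2.90 in IAP-KO mice on vehicle, 3.98, 4.71 and 4.79 in wild-type mice on IIAEK, and 3.87, 4.14 and 3.78 in wild-type mice on vehicle. All 3 wild-type mice on IIAEK exceeded 2 of the 3 IAP-KO mice on IIAEK, and IAP-KO IIAEK replicate 1 overlapped them. Oas1g averaged -1.20 ± 0.73 in IAP-KO mice on IIAEK, -1.35 ± 0.98 in IAP-KO mice on vehicle, -0.70 ± 0.72 in wild-type mice on IIAEK and -0.78 ± 0.28 in wild-type mice on vehicle. Oas2 averaged 0.19 ± 1.0 in IAP-KO mice on IIAEK, 0.32 ± 1.31 in IAP-KO mice on vehicle, 1.08 ± 0.77 in wild-type mice on IIAEK and 0.53 ± 0.061 in wild-type mice on vehicle. Oas3 averaged -2.48 ± 0.85 in IAP-KO mice on IIAEK, -2.66 ± 1.37 in IAP-KO mice on vehicle, -1.82 ± 0.41 in wild-type mice on IIAEK and -2.04 ± 0.16 in wild-type mice on vehicle, including the 1 array on which it was not well above background. Oasl2 averaged 1.90 ± 1.24 in IAP-KO mice on IIAEK, 2.23 ± 1.17 in IAP-KO mice on vehicle, 2.70 ± 0.49 in wild-type mice on IIAEK and 1.92 ± 0.37 in wild-type mice on vehicle. For all 6 OAS members replicate 3 of the IAP-KO groups gave the 2 lowest arrays.

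IFIT proteins bind RNA that lacks the marks of host messages. Ifit1 had levels of 1.67, 2.12 and 0.73 in IAP-KO mice on IIAEK, 2.12, 1.68 and -1.11 in IAP-KO mice on vehicle, 1.18, 2.38 and 1.58 in wild-type mice on IIAEK, and 2.02, 1.87 and 2.09 in wild-type mice on vehicle. IAP-KO vehicle replicate 3 was the only array below 0, and IAP-KO IIAEK replicate 3 was the next lowest. Ifit2 averaged -2.46 ± 0.24 in IAP-KO mice on IIAEK, -2.57 ± 0.62 in IAP-KO mice on vehicle, -2.42 ± 0.58 in wild-type mice on IIAEK and -2.30 ± 0.16 in wild-type mice on vehicle. Ifit3 averaged 1.23 ± 0.74 in IAP-KO mice on IIAEK, 0.74 ± 1.33 in IAP-KO mice on vehicle, 1.32 ± 0.48 in wild-type mice on IIAEK and 1.17 ± 0.30 in wild-type mice on vehicle. All 3 IFIT genes were lowest on IAP-KO vehicle replicate 3 and highest on wild-type IIAEK replicate 2.

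Isg15 encodes a ubiquitin-like protein that is attached to other proteins, Herc6 the main mouse ligase that attaches it, and Usp18 the protease that removes it and also dampens the type I receptor. Isg15 had levels of 4.32, 4.36 and 2.89 in IAP-KO mice on IIAEK, 4.62, 4.36 and 1.56 in IAP-KO mice on vehicle, 3.68, 4.69 and 4.47 in wild-type mice on IIAEK, and 4.43, 3.82 and 3.96 in wild-type mice on vehicle. Its 2 low arrays were below 3 while the other 10 lay between 3.68 and 4.69, and the lowest was 8.76-fold under the highest. Usp18 had levels of 0.81, 1.30 and 0.10 in IAP-KO mice on IIAEK, 1.38, 1.14 and -0.53 in IAP-KO mice on vehicle, 0.53, 1.37 and 1.09 in wild-type mice on IIAEK, and 0.87, 1.06 and 1.19 in wild-type mice on vehicle. Again the same 2 arrays were lowest, and the 2 highest were wild-type IIAEK replicate 2 and IAP-KO vehicle replicate 1. Herc6 averaged -2.36 ± 0.41 in IAP-KO mice on IIAEK, -2.67 ± 0.74 in IAP-KO mice on vehicle, -2.04 ± 0.40 in wild-type mice on IIAEK and -2.10 ± 0.27 in wild-type mice on vehicle.

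Of the other antiviral effectors, Ifitm3, which blocks fusion of virus and host membranes, had levels of 3.63, 3.46 and 3.22 in IAP-KO mice on IIAEK, 3.56, 3.42 and 2.92 in IAP-KO mice on vehicle, 3.33, 3.73 and 4.23 in wild-type mice on IIAEK, and 3.07, 3.16 and 3.32 in wild-type mice on vehicle. All 3 wild-type mice on IIAEK were above all 3 wild-type mice on vehicle, whereas the IAP-KO groups overlapped. Eif2ak2, which encodes PKR, a kinase that stops translation on binding double-stranded RNA, had levels of 1.10, 1.37 and 1.15 in IAP-KO mice on IIAEK, 1.0, 1.17 and 0.58 in IAP-KO mice on vehicle, 1.27, 1.15 and 0.86 in wild-type mice on IIAEK, and 1.25, 0.92 and 1.13 in wild-type mice on vehicle. The groups overlapped, and the total span was 1.72-fold. Parp14, an ADP-ribosyltransferase, had levels of 3.49, 3.08 and 2.39 in IAP-KO mice on IIAEK, 3.30, 3.04 and 2.50 in IAP-KO mice on vehicle, 3.25, 3.49 and 3.53 in wild-type mice on IIAEK, and 3.29, 3.19 and 3.04 in wild-type mice on vehicle. Its lowest arrays were again replicate 3 of each IAP-KO group. Trim30a, a rodent TRIM protein that is known to restrain signalling from Toll-like receptors, had levels of 0.68, 0.77 and 0.25 in IAP-KO mice on IIAEK, 0.95, 1.24 and 0.30 in IAP-KO mice on vehicle, 0.89, 1.32 and 1.08 in wild-type mice on IIAEK, and 1.17, 1.29 and 1.50 in wild-type mice on vehicle. All 3 IAP-KO mice on IIAEK were below all 3 wild-type mice on IIAEK, and this did not rest on replicate 3 alone.

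Rsad2 and Cmpk2 are neighbours on chromosome 12 that encode viperin, which makes a chain-ending nucleotide, and a nucleotide kinase that supplies it. Rsad2 averaged -0.78 ± 0.56 in IAP-KO mice on IIAEK, -1.15 ± 1.27 in IAP-KO mice on vehicle, -0.35 ± 0.66 in wild-type mice on IIAEK and -0.66 ± 0.095 in wild-type mice on vehicle. Cmpk2 averaged 1.63 ± 0.23 in IAP-KO mice on IIAEK, 1.26 ± 0.92 in IAP-KO mice on vehicle, 1.80 ± 0.17 in wild-type mice on IIAEK and 1.83 ± 0.17 in wild-type mice on vehicle. Both were lowest on IAP-KO vehicle replicate 3. Bst2, which encodes tetherin, averaged 2.11 ± 0.58 in IAP-KO mice on IIAEK, 2.02 ± 0.74 in IAP-KO mice on vehicle, 2.54 ± 0.31 in wild-type mice on IIAEK and 2.17 ± 0.23 in wild-type mice on vehicle. Xaf1, a gene that promotes cell death, averaged 0.82 ± 0.87 in IAP-KO mice on IIAEK, 0.79 ± 0.92 in IAP-KO mice on vehicle, 1.26 ± 0.23 in wild-type mice on IIAEK and 1.11 ± 0.21 in wild-type mice on vehicle. Rtp4, a chaperone of membrane receptors, averaged 2.99 ± 0.85 in IAP-KO mice on IIAEK, 2.63 ± 1.23 in IAP-KO mice on vehicle, 3.44 ± 0.49 in wild-type mice on IIAEK and 3.33 ± 0.35 in wild-type mice on vehicle. For these 3 genes the 2 lowest arrays were replicate 3 of the 2 IAP-KO groups.

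Guanylate-binding proteins attack the vacuoles of intracellular pathogens and respond strongly to interferon gamma. Gbp2 had levels of 1.25, 1.73 and 0.53 in IAP-KO mice on IIAEK, 1.35, 1.44 and 0.89 in IAP-KO mice on vehicle, 0.94, 1.29 and 1.40 in wild-type mice on IIAEK, and 1.06, 0.83 and 1.50 in wild-type mice on vehicle. IAP-KO IIAEK replicate 3 was lowest, but wild-type vehicle replicate 2 came next, so IAP-KO vehicle replicate 3 did not stand apart for Gbp2. Gbp3 averaged 1.12 ± 0.43 in IAP-KO mice on IIAEK, 0.85 ± 0.57 in IAP-KO mice on vehicle, 1.31 ± 0.27 in wild-type mice on IIAEK and 1.21 ± 0.23 in wild-type mice on vehicle. Of the remaining members, Lgals3bp, a secreted glycoprotein that binds galectins, had levels of 5.29, 4.73 and 3.82 in IAP-KO mice on IIAEK, 5.04, 4.92 and 4.32 in IAP-KO mice on vehicle, 4.70, 4.90 and 5.56 in wild-type mice on IIAEK, and 4.48, 4.43 and 4.27 in wild-type mice on vehicle. All 3 wild-type mice on IIAEK were above all 3 wild-type mice on vehicle, and the IAP-KO groups overlapped. Ifi44 averaged -1.42 ± 0.71 in IAP-KO mice on IIAEK, -1.64 ± 1.55 in IAP-KO mice on vehicle, -0.45 ± 0.62 in wild-type mice on IIAEK and -1.09 ± 0.35 in wild-type mice on vehicle. Ifi27l2a averaged 3.80 ± 0.42 in IAP-KO mice on IIAEK, 3.61 ± 1.24 in IAP-KO mice on vehicle, 4.09 ± 0.30 in wild-type mice on IIAEK and 3.65 ± 0.51 in wild-type mice on vehicle. Ifi35 averaged 5.66 ± 0.42 in IAP-KO mice on IIAEK, 5.70 ± 0.15 in IAP-KO mice on vehicle, 5.80 ± 0.070 in wild-type mice on IIAEK and 5.75 ± 0.29 in wild-type mice on vehicle. Ifi44 spanned 11.1-fold over the 12 arrays and Ifi35 spanned 1.87-fold.

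The question of the genotype contrasts is whether loss of Akp3 changes these transcripts. No member passed an adjusted p of 0.05 in IAP-KO against wild-type mice over both treatments, where 0.00363% of all genes (1 gene) passed, nor on vehicle (0% of all genes) or on IIAEK (0%). An unadjusted p below 0.05 was reached by 2 members over both treatments (5.5% of all genes), 1 on vehicle (11.3%) and 1 on IIAEK (7.93%). Over both treatments 34 of the 35 log2 differences were below 0, against 49.9% of all genes, with a median of -0.32 against 0.00042 over all genes. On vehicle 31 were below 0 (54.4% of all genes) with a median of -0.32, and on IIAEK 33 (45.7% of all genes) with a median of -0.33. These contrasts share arrays and are not independent of each other. Without the array labelled wild-type vehicle replicate 3 the median was -0.33 over both treatments and -0.30 on vehicle, and no member passed.

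The genotype difference depended on replicate 3 of the IAP-KO groups. Without these 2 arrays, a step chosen after the data were seen, 12 of the 35 differences over both treatments were below 0, against 47.6% of all genes. The other 23 were above 0, the median was 0.059, and no member passed (smallest adjusted p = 0.605 by limma). On vehicle the median became 0.13 and on IIAEK -0.044. Within slide 1, with 4 IAP-KO and 2 wild-type arrays, the median over both treatments was 0.25. There 29 of 35 genes were higher in IAP-KO mice and 6 were lower, whereas 52.2% of all genes were lower. Within slide 2, with 2 IAP-KO arrays, which are the 2 low ones, and 4 wild-type arrays, the median was -1.15. There all 35 were lower in IAP-KO mice, against 47.5% of all genes. The sign of the genotype difference thus turned between slides. On vehicle the within-slide medians were 0.087 on slide 1 and -1.30 on slide 2, and on IIAEK 0.29 on slide 1 and -1.16 on slide 2. With slide as a block over all 12 arrays the median was -0.47 over both treatments, -0.43 on vehicle and -0.50 on IIAEK, and no member passed.

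**Figure D3:**
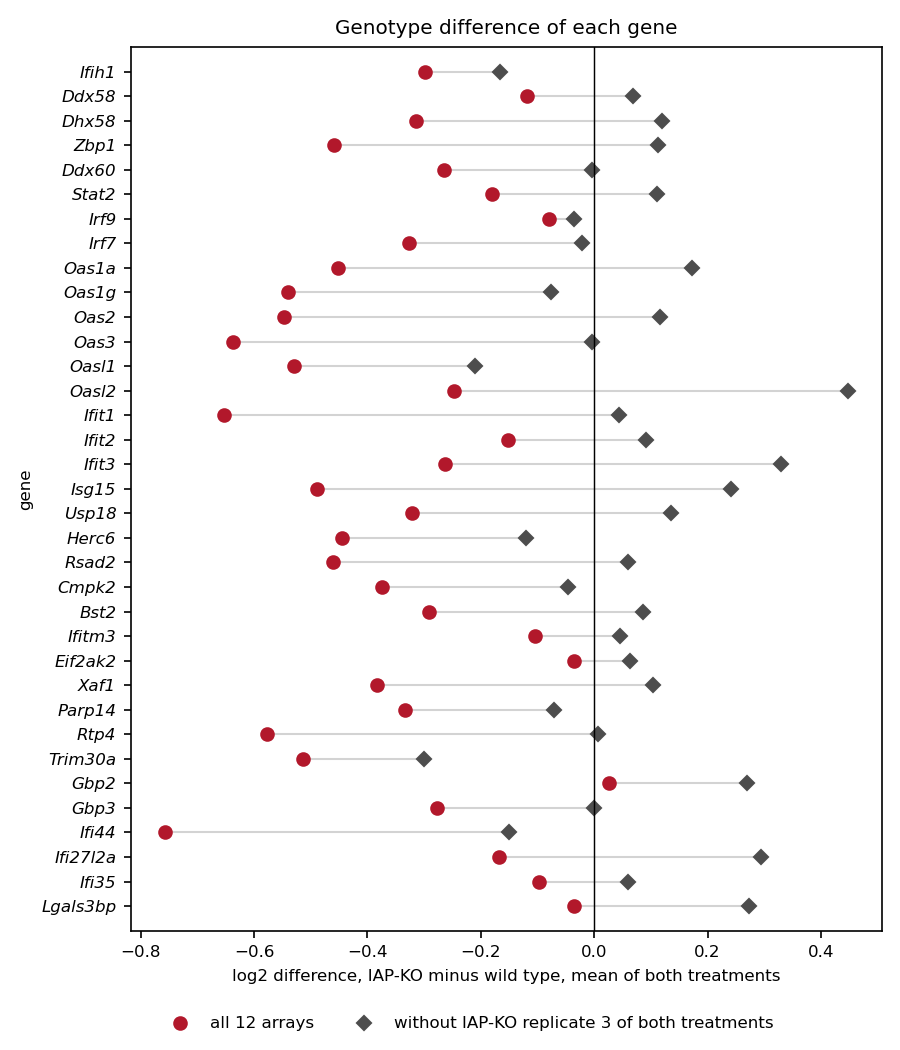
Log2 difference between IAP-KO and wild-type mice, averaged over both treatments, for each of the 35 genes, from all 12 arrays (circles) and from the 10 arrays without replicate 3 of the IAP-KO groups (diamonds). With 12 arrays 34 genes lie left of 0, against 49.9% of all genes, and with 10 arrays 12 do, against 47.6%.

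The member with the smallest p over both treatments was Trim30a, with a log2 difference of -0.51 (SE 0.17, limma adjusted p = 0.763). Without the 2 low arrays its difference was -0.30 (SE 0.13, adjusted p = 0.605). Ifih1 differed by -0.30 (SE 0.13, adjusted p = 0.887) and Oasl1 by -0.53 (SE 0.27, adjusted p = 0.932). Trim30a and Ifih1 were the 2 members (5.71%) with an unadjusted p below 0.05 over both treatments. On vehicle the smallest p belonged to Ifih1 at -0.46 (SE 0.18, adjusted p = 0.428), Trim30a at -0.49 and Ddx60 at -0.57. On IIAEK it belonged to Trim30a at -0.53 (SE 0.24, adjusted p = 0.619), Oasl1 at -0.73 and Parp14 at -0.44. Without IAP-KO IIAEK replicate 3 the Oasl1 and Parp14 differences on IIAEK were -0.45 and -0.14. Trim30a was the 1 member whose IAP-KO and wild-type arrays on IIAEK did not overlap, and 3.44% of all genes were lower without overlap in that comparison.

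The IIAEK contrasts ask whether the peptide changes these transcripts. In wild-type mice no member passed (0% of all genes passed), and 26 of 35 were higher on IIAEK, against 43.8% of all genes, with a median of 0.14 against -0.055. Ifitm3 alone reached an unadjusted p below 0.05, 1 of 35 members against 12.8% of all genes. Ifitm3 was higher by 0.58 (SE 0.24, limma adjusted p = 0.373), Lgals3bp by 0.66 (SE 0.34, adjusted p = 0.409) and Oasl1 by 0.56 (SE 0.38, adjusted p = 0.476). Ddx58, Ifitm3 and Lgals3bp were higher on IIAEK without overlap between the 2 groups of wild-type arrays, 3 of 35 (8.57%), against 10.7% of all genes. For Ddx58 this held only for the probe used. On each of its further probes, all well above background on every array, the 2 groups overlapped. The OAS family had a median of 0.49 with 6 of 6 above 0, and the IFIT family -0.12 with 1 of 3 above 0. The median of the 35 was -0.23 within slide 1 (1 array against 1) and 0.35 within slide 2 (2 against 2), so its sign also turned between slides. Without wild-type IIAEK replicate 3 the differences of Ifitm3 and Lgals3bp were 0.35 and 0.41. That array had the highest mean deviation of the 12 for markers of smooth muscle (0.91, with 5 of 6 genes highest there), fibroblasts (0.52) and exocrine pancreas (8.77), and the part of these in the result was not tested. Without the array labelled wild-type vehicle replicate 3 the median of the 35 was 0.21, and no member passed.

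In IAP-KO mice no member passed either (0% of all genes), and 26 of 35 were higher on IIAEK, against 53.8% of all genes, with a median of 0.135. An unadjusted p below 0.05 was reached by 0 members, against 4.63% of all genes. Eif2ak2 was higher by 0.29 (SE 0.18, limma adjusted p = 0.893), Zbp1 by 0.73 (SE 0.60, adjusted p = 0.894) and Ifih1 by 0.20 (SE 0.18, adjusted p = 0.898). Each IAP-KO group holds 1 of the low arrays, and the median was -0.33 without IAP-KO vehicle replicate 3, 0.40 without IAP-KO IIAEK replicate 3 and -0.024 without both. Zbp1 had a difference of -0.085 once IAP-KO vehicle replicate 3 was left out. Within slide 1 (2 arrays against 2) the median was -0.024 and within slide 2 (1 against 1) 0.47. Over both genotypes 31 of 35 were higher on IIAEK (48.6% of all genes) with a median of 0.17, and no member passed (0% of all genes) or had an unadjusted p below 0.05 (3.49% of all genes). Ifitm3 led with 0.36 (SE 0.17, limma adjusted p = 0.962), followed by Trim30a at -0.24 and Oasl1 at 0.36. The median over both genotypes was -0.12 within slide 1, 0.39 within slide 2 and 0.19 without the array labelled wild-type vehicle replicate 3.

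The interaction of genotype and IIAEK, the test of whether the peptide acts differently in IAP-KO mice, was passed by no member (0% of all genes). The median was -0.040 with 16 of 35 above 0, against 55.3% of all genes, and it was 0.19 within slide 1, 0.18 within slide 2 and -0.076 without the array labelled wild-type vehicle replicate 3. Lgals3bp had the smallest p, with an interaction of -0.82 (SE 0.49, limma adjusted p = 0.415), followed by Ifitm3 at -0.44 and Ddx60 at 0.60. No member had an unadjusted p below 0.05, against 15.2% of all genes. The difference in the IIAEK response of Ifitm3 and Lgals3bp between genotypes therefore did not pass the test, although their wild-type arrays did not overlap.

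A list of 124 other genes of the interferon system was examined beside the members. Of these, 111 were named on the array and 100 were tested, and 0 passed in either direction in any of the 7 comparisons. Their lowest level was on 1 of the same 2 IAP-KO arrays for 62 of the 100, against 26.3% of all genes. By role this held for 25 of 33 further interferon-stimulated genes, 19 of 23 targets of interferon gamma and 8 of 8 transcription factors. It also held for 4 of 8 signalling genes and 4 of 10 sensing genes and adaptors. For ligands it was 2 of 12 and for receptors 0 of 6, and whether these small counts differ from the share of all genes was not tested.

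Ifnb1, the gene of interferon beta, was not well above background on any array. Ifng, the gene of interferon gamma, had levels of -3.12, -2.71 and -3.78 in IAP-KO mice on IIAEK, -3.56, -3.58 and -4.33 in IAP-KO mice on vehicle, -4.0, -3.35 and -4.36 in wild-type mice on IIAEK, and -4.17, -3.04 and -3.25 in wild-type mice on vehicle, with no separation of the groups. Ifnar1, a chain of the type I receptor, had levels of 3.39, 3.40 and 3.67 in IAP-KO mice on IIAEK, 3.31, 3.39 and 3.32 in IAP-KO mice on vehicle, 3.25, 3.24 and 3.06 in wild-type mice on IIAEK, and 3.34, 3.51 and 3.65 in wild-type mice on vehicle. Ifnlr1, a chain of the type III receptor, had levels of 2.89, 2.46 and 2.28 in IAP-KO mice on IIAEK, 2.44, 2.37 and 2.31 in IAP-KO mice on vehicle, 2.53, 2.31 and 2.23 in wild-type mice on IIAEK, and 2.53, 2.69 and 2.44 in wild-type mice on vehicle. Neither receptor chain was lowest on the 2 IAP-KO arrays, since both were lowest on wild-type IIAEK replicate 3. The smallest p among the listed genes in IAP-KO against wild-type mice over both treatments belonged to Parp9, a partner of Parp14, at -0.42 (SE 0.17, limma adjusted p = 0.848), Ifna5 at -0.49 and Samd9l at -0.43. For IIAEK in wild-type mice it belonged to Jak2, a kinase of the interferon gamma receptor, at -0.45 (SE 0.16, adjusted p = 0.373), Socs3, a feedback inhibitor, at -0.72 and Il18 at -0.50. Socs3 also had the smallest p in the interaction, at 1.09 (SE 0.36, adjusted p = 0.303), and on IIAEK between genotypes, at 0.79 (SE 0.25, adjusted p = 0.619). It was followed by Irf5 at -1.02 and Ptpn6 at -0.70 in the interaction, and by Adar at -0.47 and Irf5 at -0.67 between genotypes on IIAEK. On vehicle between genotypes the smallest p belonged to Ifna14 at -0.70 (SE 0.24, adjusted p = 0.428), B2m at -0.54 and Il18 at -0.48. For IIAEK in IAP-KO mice it belonged to Ifna14 at 0.61 (SE 0.24, adjusted p = 0.893), Sp100 at -0.36 and Irf5 at -0.60, and over both genotypes to Il18 at -0.24, Slfn8 at -0.30 and Ifna1 at -0.28, none of which passed. The Ifna genes are close copies of each other, and whether their probes tell them apart was not tested.

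Markers of 13 cell types and of nearby tissue were followed on the same arrays. In 0 of the 13 lists were the 2 low IAP-KO arrays the 2 lowest, and in 8 lists they lay on opposite sides of the average. For B and plasma cells the mean deviation was -1.55, -1.10 and -1.89 in IAP-KO mice on IIAEK and 1.37, 1.91 and 1.30 in IAP-KO mice on vehicle. In wild-type mice it was -1.19, 1.95 and 1.13 on IIAEK and -1.57, -1.82 and 1.46 on vehicle. These markers thus separated the IAP-KO groups by treatment, and their part in the IIAEK contrasts and the interaction was not tested. For dendritic cells the mean deviation was -1.29 on IAP-KO IIAEK replicate 3 and 0.034 on IAP-KO vehicle replicate 3. For neutrophils it was 1.74 on the IAP-KO IIAEK array and 0.12 on the IAP-KO vehicle array. Of the neutrophil markers 3 were tested, and only Csf3r was well above background on all 12 arrays. Paneth cell markers, of the antimicrobial cells at the crypt base, were at 1.20 on the IAP-KO IIAEK array and -0.60 on the IAP-KO vehicle array. All 9 enterocyte markers, which define the absorptive epithelium of the labelled tissue, were well above background on all 12 arrays, with deviations of -0.0086 on the IAP-KO IIAEK array and 0.0023 on the IAP-KO vehicle array. Of 9 macrophage and monocyte markers, 6 were lowest on 1 of the 2 arrays, as were 4 of 5 dendritic cell markers, against 26.3% of all genes. The same held for 5 of 7 exocrine pancreas markers, 3 of 6 Paneth cell markers and 4 of 9 B and plasma cell markers. In each of the other lists the share was 25% or lower. Macrophage and monocyte markers were at 0.068 on the IAP-KO IIAEK array and -0.25 on the IAP-KO vehicle array, the latter being the lowest of the 12 arrays. Fibroblast markers were at -0.011 and -0.72 on the same arrays. The part of these cell types in the result was not tested. Markers of exocrine pancreas were high on IAP-KO vehicle replicate 3 (4.34) and higher on wild-type IIAEK replicate 3 (8.77), and low on IAP-KO IIAEK replicate 3 (-3.11). The share of spots well above background was 67.1% on IAP-KO IIAEK replicate 3, the highest of the 12, and 59.99% on IAP-KO vehicle replicate 3, the lowest.

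**Figure D4:**
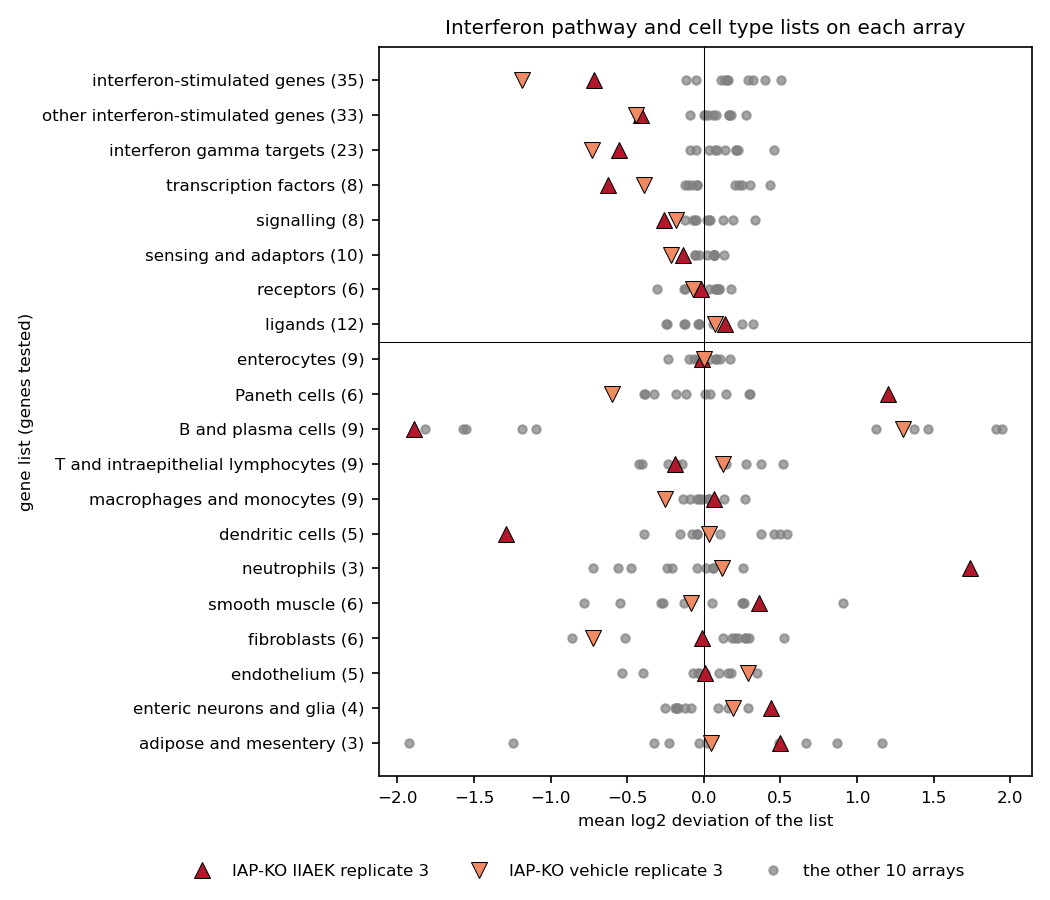
Mean log2 deviation of gene lists from their average over the 12 arrays, with the number of genes tested in brackets; triangles are replicate 3 of the IAP-KO groups and grey points the other 10 arrays. Interferon lists are above the line and cell type lists below it, and exocrine pancreas, which runs from -3.11 to 8.77, is left off the axis. The 2 triangles lie left of all grey points for all interferon lists except receptors and ligands.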

How the data were processed

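The study measured gene expression in jejunum with 1 Agilent array per mouse. Per the file headers, the deposited array files were made with Feature Extraction 10.7.3.1 and hold a processed signal, an intensity corrected for background but not scaled between arrays. The authors also deposited a table of log2 values, which follows the scaled values centred on each probe, as found from the values. Members and lists were chosen with earlier results of these data known. Here log2 processed signal minus the array's 75th percentile was used, spots of a probe were averaged, non-uniform outlier spots were removed, and the brightest probe stood for a gene. Symbols came from RefSeq accessions (table on GRCm38.p6, used for names). Genes were tested if 1 or more groups had the probe well above background on each of its 3 arrays. The 4 group means were fitted over 12 arrays with limma 3.58.1 in R 4.3.3, two-sided, with Benjamini-Hochberg adjustment over 27565 genes within each of 7 comparisons. The fit was tested on simulated data. No mean signal was used here, so the normexp alternative took median signals. No list received a set test. Replicate numbers were not taken as pairs. Of 18 same-numbered pairs of arrays, 8 had correlated deviations over 0.1. No pairs with different numbers were set beside these, so this count cannot decide whether the numbers pair the mice. Values on every array are given for the 3 members of smallest p in each comparison and for at least 1 member of most roles, group means for the other members. Of the listed pathway genes, those with the smallest p and a few preset ones are named. With 3 arrays against 3, the number of arrays limits the precision.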

Additional observations from a re-analysis of the deposited data

How the results depend on the processing

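No member passed in any of the 7 comparisons under any alternative run, the smallest adjusted p of a member by limma being 0.146. Counts of all genes passing for genotype over both treatments (1 as reported) were 2 with normexp and with the mean of a gene's probes, 4 with quantile normalization, with the filter on all 12 arrays and with an intensity trend, 3 with slide as a block, 0 with the replicate block and 0 without the 2 low arrays; leaving out single arrays gave 0 to 8. Slide as a block gave 1 gene for IIAEK in wild-type mice, for genotype on IIAEK and for the interaction. Fits within a slide gave 7 genes for IIAEK in IAP-KO mice (slide 1) and 9 for IIAEK in wild-type mice (slide 2). Fits on the compared groups alone gave 14 genes for IIAEK in IAP-KO mice, 1 for genotype on vehicle and 5 on IIAEK. Without the 2 low arrays 1 gene passed for IIAEK over both genotypes. Leaving out single arrays gave 0 to 1 gene for IIAEK in wild-type mice and over both genotypes, 0 to 2 for genotype on vehicle and 0 to 3 on IIAEK. The cause of these differences was not tested. The block did not call any member, and whether the numbers pair the mice was not tested.

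The members' medians for genotype moved within slides: on vehicle -1.30 (slide 2), on IIAEK 0.29 (slide 1) and -1.16 (slide 2), and over both treatments 0.25 and -1.15. Slide as a block gave -0.43 on vehicle, -0.50 on IIAEK and -0.47 over both treatments. Leaving out single arrays, the median ran from -0.53 to 0.13 for genotype on vehicle, the higher one without IAP-KO vehicle replicate 3, from -0.52 to -0.044 on IIAEK, from -0.45 to -0.080 over both treatments, from 0.029 to 0.34 for IIAEK in wild-type mice, from -0.33 to 0.40 for IIAEK in IAP-KO mice, from -0.069 to 0.34 over both genotypes and from -0.44 to 0.19 for the interaction. Zbp1 for IIAEK in IAP-KO mice ran from -0.085, without IAP-KO vehicle replicate 3, to 1.21. Signal over background limits Oas3, not well above background on 1 array, and the dim interferon ligands.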

Other observations

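Among 23 targets of interferon gamma, Gbp5, Gbp9, H2-K1 and Ido1 were lowest on other arrays than replicate 3 of the IAP-KO groups, and they were chosen here after their values were seen. Gbp5 was nevertheless low on both of these, at -1.54 on the IAP-KO IIAEK array and -1.52 on the IAP-KO vehicle array, with only IAP-KO IIAEK replicate 2 lower (-1.66), and Ido1 was second lowest on the IAP-KO IIAEK array (1.85). All 6 receptor genes were lowest on other arrays as well, although Ifnlr1 was next lowest on the IAP-KO IIAEK array (2.28) and the IAP-KO vehicle array (2.31).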
